A study of Mus musculus with 4 samples.

Results

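Plasma cells of the inflamed mouse colon were examined in droplet-based single-cell RNA sequencing of lamina propria leukocytes. Each of the 4 samples pooled the colons of 3 mice that shared a genotype, AhR-null (AhR-/-, lacking the aryl hydrocarbon receptor, AhR) or wild-type (WT). All mice were given 2% dextran sulfate sodium (DSS), a sugar polymer toxic to colonic epithelium, for 7 days in their drinking water, and tissue was taken on day 8. The labels give an age of 10 weeks and the study's figure legend gives 8 weeks. Cells were enriched with beads against CD45, the pan-leukocyte phosphatase encoded by Ptprc. The labels used here give DSS but no genotype for any sample, so the samples are numbered 1 to 4, no genotypes are compared, and no p-value is given. Every value stands for its own sample, and each 95% interval (exact binomial for shares, exact Poisson for summed counts) covers counting error only. The deposited counts summed to 113806334, 135516016, 101579112 and 72509408 unique molecular identifiers (UMIs, counts of tagged transcripts) in samples 1 to 4.

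Among cells with at least 200 detected genes and under 20% mitochondrial UMIs (kept cells), a cell was taken as a plasma cell when it held at least 20 UMIs of Jchain, at least 2 of Mzb1 and at least 5 of Xbp1, and no UMI of Cd3e, Cd3d, Csf3r, Csf1r, C1qa or Siglech. These rules selected 244 of 43432 kept cells, which were 29 in sample 1, 143 in sample 2, 48 in sample 3 and 24 in sample 4. The cells were thus chosen by the measured UMIs of these genes, whose levels below are descriptions. Of the defining markers that the rules did not use, Sdc1 was found in most cells of every sample and Tnfrsf17 in most cells of samples 1 and 2 only, as given below. Sdc1, which encodes syndecan-1 (CD138), had a UMI in 93.1%, 88.8%, 87.5% and 95.8% of plasma cells in samples 1 to 4, against 8.73%, 11.03%, 16.7% and 10.4% of neutrophil-marked cells. Median depth without immunoglobulin UMIs was 13350, 10128, 10656 and 11005 in plasma cells and 8499.5, 8767, 5878 and 7291 in neutrophil-marked cells. The latter hold at least 20 summed UMIs of S100a8 and S100a9 and carry Csf3r. They served as a reference for free RNA, although mixed droplets were not excluded from them. Few cells lay near the limits on Jchain and Xbp1 UMIs, and more lay near that on Mzb1. With the other limits held, 1 cell had 10 to 19 Jchain UMIs and 0 cells had 20 to 29, while 4 cells had 4 Xbp1 UMIs and 2 cells had 5. For Mzb1, 14 cells had 1 UMI and 14 cells had 2, of which 6 were in sample 3. The cells with 1 Mzb1 UMI held a median of 1374.5 Igha UMIs, and their median immunoglobulin share was 46.3%.

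Plasma cells are the antibody-secreting end stage of the B lineage. They shut down much of the B cell programme, enlarge the endoplasmic reticulum (ER), and devote much of their transcription to immunoglobulin. In the gut most of them make dimeric IgA, in which the J chain encoded by Jchain joins the monomers so that the polymeric immunoglobulin receptor of the epithelium can carry IgA into the lumen. XBP1, made active when the ER sensor IRE1 splices its mRNA, and ATF6 raise chaperone genes through short promoter elements. BCMA (Tnfrsf17) and TACI (Tnfrsf13b) receive survival signals from APRIL and BAFF, and CCR9, CCR10 and the integrin α4β7 (Itga4, Itgb7) guide the cells to mucosal tissue.

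The ER stress element, in its strict form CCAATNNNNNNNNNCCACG, occurred in 39 of 32851 promoter windows (250 bases before to 50 after a gene start; RefSeq, GRCm38.p6) when both strands were searched, or 0.119%. Among the ER chaperone genes described below, 7 of the 20 with a promoter sequence held it (Calr, Canx, Creld2, Dnajc3, Hsp90b1, Hspa5 and Pdia6), as did Derl3 and Syvn1 among 14 genes of ER-associated degradation. No gene with a sequence in the lists of ER translocation (17), N-glycosylation (14), ER to Golgi transport (21), B cell identity (12) or MHC class II (6) held it. The 250 bases before the start of 4 of these genes are shown because their transcripts were among those that set plasma cells apart from B cells, and capitals mark the element or its reverse complement. They lie at chr2:34771840-34772089 (plus strand) for Hspa5, chr15:88819396-88819645 (plus strand) for Creld2, chr10:75893148-75893397 (plus strand) for Derl3 and chr10:86705445-86705694 (minus strand) for Hsp90b1, each read along the gene's strand.
Hspa5: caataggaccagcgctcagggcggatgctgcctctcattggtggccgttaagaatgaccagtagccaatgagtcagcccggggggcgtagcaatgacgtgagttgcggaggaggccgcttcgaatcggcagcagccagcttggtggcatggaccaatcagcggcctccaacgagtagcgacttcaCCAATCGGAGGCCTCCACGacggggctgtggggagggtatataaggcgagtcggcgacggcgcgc
Creld2: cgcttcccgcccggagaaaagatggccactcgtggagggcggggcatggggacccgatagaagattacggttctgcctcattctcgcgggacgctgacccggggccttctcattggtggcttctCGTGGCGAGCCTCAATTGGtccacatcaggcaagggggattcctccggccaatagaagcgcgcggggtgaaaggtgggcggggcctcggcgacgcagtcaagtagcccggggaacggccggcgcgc
Derl3: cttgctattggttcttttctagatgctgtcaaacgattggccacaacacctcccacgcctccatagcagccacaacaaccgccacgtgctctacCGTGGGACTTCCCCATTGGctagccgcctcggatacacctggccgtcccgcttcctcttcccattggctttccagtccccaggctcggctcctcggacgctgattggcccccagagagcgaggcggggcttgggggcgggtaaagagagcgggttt
Hsp90b1: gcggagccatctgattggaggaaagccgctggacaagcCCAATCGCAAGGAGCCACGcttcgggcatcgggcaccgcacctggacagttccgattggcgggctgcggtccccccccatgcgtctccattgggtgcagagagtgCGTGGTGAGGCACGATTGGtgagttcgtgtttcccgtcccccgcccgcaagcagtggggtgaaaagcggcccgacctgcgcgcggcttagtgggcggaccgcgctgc
The first base of the match lay 65 bases before the start of Hspa5, 126 before that of Creld2 and 156 before that of Derl3, and Hsp90b1 held 2 matches, at 212 and 107. Over all genes with the element in a promoter, 13 were tested below, of which 8 were higher in plasma cells than in B cells and 0 were lower, beside 7.68% and 8.58% of all 9909 genes tested. These 8 all belong to the lists of ER chaperones and of ER-associated degradation. The cells were also chosen by Xbp1, so these counts describe the selected cells and are not separate support. The shorter element TGACGTGG occurred in 0.676% of promoter windows, in 2 of the 20 chaperone genes and in 5 of the 21 genes of ER to Golgi transport (Copb1, Copb2, Kdelr3, Sec23a and Sec24d). Of the 89 tested genes with this element, 17 were higher and 5 lower, with a median log2 difference of 0.26, 0.16, 0.32 and 0.23. A match of letters is a description of the sequence and not evidence of binding.

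In samples 1 to 4, plasma cells made up 0.264%, 1.08%, 0.43% and 0.298% of the cells kept. Their 95% intervals were 0.177% to 0.379%, 0.912% to 1.27%, 0.317% to 0.57% and 0.191% to 0.443%. The interval of sample 2 did not overlap those of samples 1, 3 and 4, which overlapped one another. Of the rule's limits that were varied, which did not include that on Mzb1, the requirement for no UMI of the lineage genes moved this share most. Before it, 68, 470, 84 and 44 cells qualified, and it removed 39, 327, 36 and 20 of them. Of the 422 cells removed, 144 held a single UMI of these genes and 162 held 5 or more. In sample 2 the removed cells held Cd3d in 194 cases and C1qa in 159. Igha in cells that should lack it was also highest in that sample, since neutrophil-marked cells held on average 5.36, 48.4, 7.46 and 8.96 Igha UMIs in samples 1 to 4, with medians of 1, 5, 1 and 0. Whether mixed droplets or free RNA put the lineage UMIs into these cells was not tested. The cells were enriched on CD45, and whether this altered the share was not tested. Ptprc itself was at 333, 421, 358 and 514 CPM (UMIs scaled to a common library total, explained below) in plasma cells against 1160, 1272, 1434 and 1480 in B cells.

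**Figure D1:**
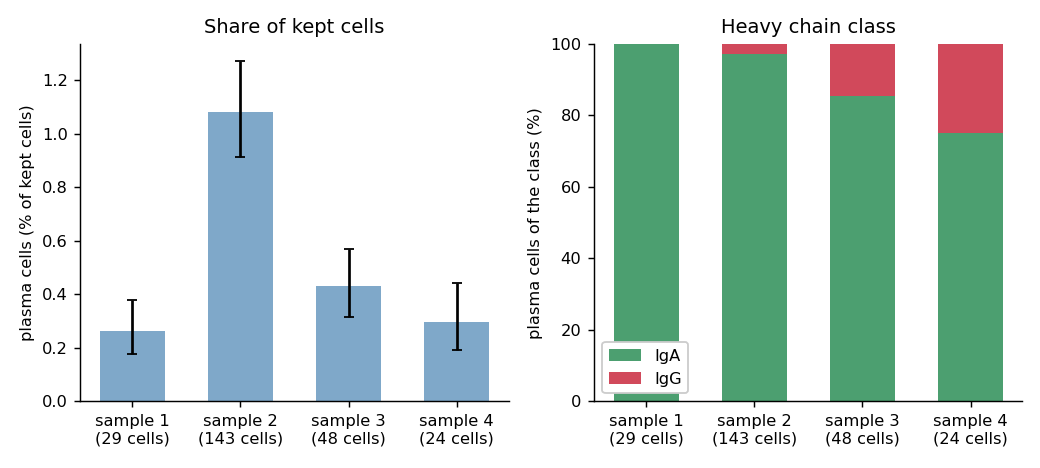
Left, plasma cells as a percentage of kept cells in each sample, with 95% exact binomial intervals. Right, the percentage of plasma cells whose heavy chain transcripts were IgA or IgG. Sample 2 stands at 1.08%, above the other samples, and IgG cells reach 25% in sample 4.

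Immunoglobulin transcripts took a median of 43.6%, 43.9%, 44.1% and 39.9% of the UMIs of a plasma cell in samples 1 to 4, against 0.442%, 0.559%, 0.346% and 0.338% in B cells. The share ranged from 8.26% to 61.3% over the cells of sample 1 and from 3.02% to 67.7% over those of sample 2. Other transcripts are therefore given as CPM over UMIs that are not on the 392 immunoglobulin genes, so that the antibody load does not press down every other gene. With all UMIs as the base instead, the median gene differed from B cells by -0.82, -0.69, -0.75 and -0.64 on the log2 scale, in place of -0.25, -0.13, -0.19 and -0.17. Changes below are to be read against those medians. A plasma cell held a median of 3316, 3006, 2940 and 3218 genes.

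IgA dominated the heavy chains. Each cell was assigned to a class when at least 70% of its heavy chain constant UMIs fell on that class, and all 244 were assigned, 227 to IgA, 17 to IgG and 0 to IgM, IgD or IgE. IgA cells were 29 of 29, 139 of 143, 41 of 48 and 18 of 24 in samples 1 to 4. As shares these were 100%, 97.2%, 85.4% and 75%, with 95% intervals of 88.1% to 100%, 93.0% to 99.2%, 72.2% to 93.9% and 53.3% to 90.2%. The intervals of samples 2 and 4 did not overlap, and those of every other pair did. The absence of IgM cells in 143 cells of sample 2 allows a share of up to 2.55%, and in the 24 cells of sample 4 up to 14.2%. The assignments were not close, since the leading class held a median of 99.94%, 99.89%, 99.98% and 99.96% of a cell's heavy chain UMIs and at least 89.4% in every cell. IgG cells held 695 to 4357 UMIs of their leading Ighg gene and at most 110 UMIs of Igha.

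**Figure D2:**
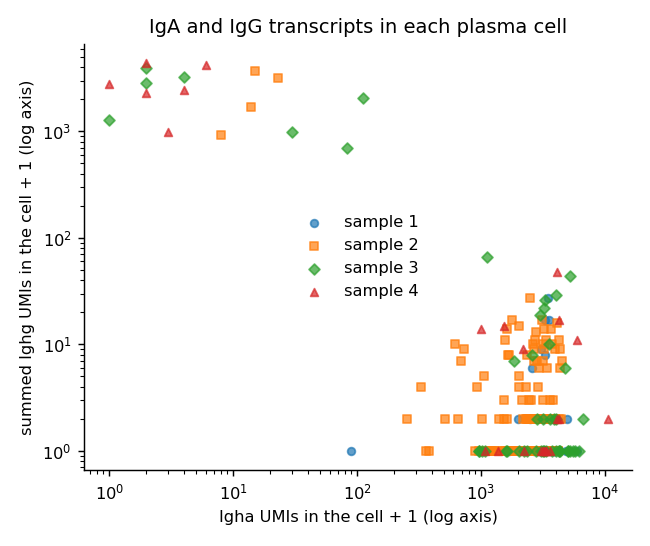
Each point is a plasma cell, placed by its Igha UMIs and its summed Ighg UMIs on log axes, with a symbol for each sample. The cells form separate IgA and IgG arms with no cell high in both, and the IgG arm holds 4 cells of sample 2, 7 of sample 3, 6 of sample 4 and 0 of sample 1.

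The IgG cells used different subclasses. In sample 2, 3 cells led with Ighg2b and 1 with Ighg1. In sample 3, 3 led with Ighg2b and 4 with Ighg2c, and in sample 4, 1 led with Ighg2b and 5 with Ighg2c. No cell led with Ighg3. Mouse IgG2c and IgG2b are the subclasses that best engage activating Fc receptors and complement. Light chains were mostly kappa, in 26 of 29, 137 of 143, 44 of 48 and 23 of 24 cells, and the intervals of all samples overlapped. The 14 lambda cells led with Iglc1 in 9 cases, Iglc2 in 4 and Iglc3 in 1, but the lambda constant genes are near copies of one another and their reads may be split wrongly.

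Jchain, a gene of the selection rule, was lower in IgG than in IgA cells on the median. In IgA cells its median was 116237, 114986, 110746 and 67345 CPM in samples 1 to 4. In IgG cells it was 41836 CPM in sample 2 (9319 to 114713 over 4 cells), 11224 in sample 3 (4840 to 64998 over 7 cells) and 12664 in sample 4 (4891 to 44637 over 6 cells). Every IgG cell lay below the median of the IgA cells of its own sample, although the ranges overlapped. The limit of 20 Jchain UMIs removed few cells, since only 1 cell that met the other rules had fewer than 20 Jchain UMIs, and it was an IgA cell. IgG needs no J chain, which serves polymeric IgA and IgM. With 4, 7 and 6 IgG cells, no gene-by-gene comparison between the classes was run, since it required 50 cells of each class in a sample.

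**Figure D3:**
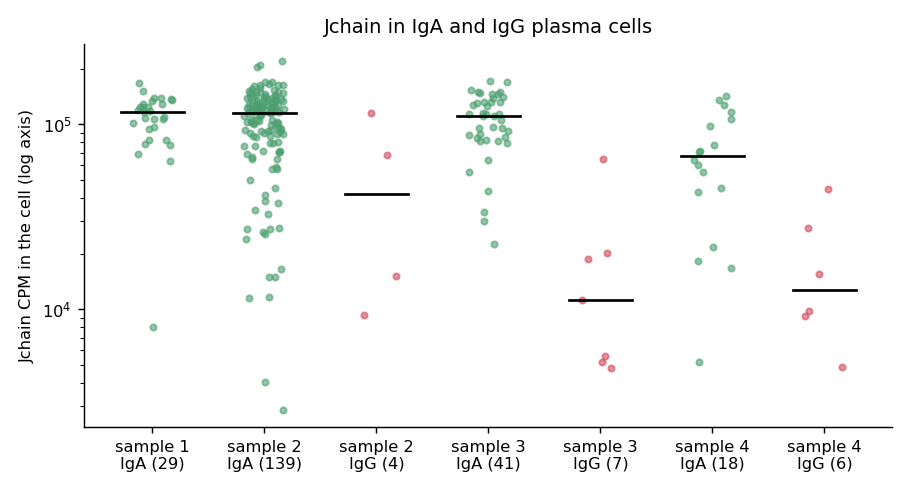
Jchain CPM in every plasma cell on a log axis, split by sample and heavy chain class, with the number of cells in brackets and black bars at the medians. The IgG points, at 4840 to 114713 CPM, lie below the IgA median of their sample in all 17 cells.

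Receptor transcripts were also read in the few IgG cells. Ccr10 had 2 UMIs over the 4 IgG cells of sample 2, 7 over the 7 of sample 3 and 0 over the 6 of sample 4. In CPM these were 44.5 (95% interval 5.39 to 161), 49.6 (19.9 to 102) and 0 (up to 58.8), against 320, 59.8 and 131 in the IgA cells of the same samples. Cxcr4, the receptor that draws plasma cells to bone marrow, was at 200.4, 191 and 112 CPM in IgG cells against 48.5, 95.6 and 98.9 in IgA cells, with intervals that did not overlap in sample 2 only, where they were 91.6 to 380 and 37.9 to 61.2. Itgb7 gave 2, 3 and 0 UMIs over the IgG cells, and Tnfrsf17 gave 4, 1 and 0.

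To describe how plasma cells differed from B cells, summed plasma cells were compared within each sample with B cells that carried Ms4a1 and at least 2 Ighd UMIs (1280, 871, 117 and 141 cells). A gene was called when it differed at least 2-fold in the same direction in 4 of 4 samples on log2(CPM + 5), among 9909 genes that reached 10 CPM. On this rule 761 genes were higher (7.68%) and 850 lower (8.58%), which is the background for the gene lists below. With CPM over all UMIs, 339 of 9203 genes were higher (3.68%) and 2293 lower (24.9%), so the balance of calls turned, and list counts given for that scaling are to be read against these shares. The classes were cut by Jchain, Mzb1, Xbp1, Ms4a1 and Ighd, so these genes had to differ. Jchain stood at 105325, 97284, 80033 and 51688 CPM, Xbp1 at 1912, 2216, 2422 and 2029, and Mzb1 at 1905, 1982, 1148 and 1630. Sdc1, which was not used, was higher in all samples, at 426, 376, 322 and 254 CPM against 7.05, 5.14, 3.90 and 5.25 in B cells. Germinal centre-like B cells, at 4, 29, 3 and 2 cells, were too few to compare.

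Genes of the secretory machinery were mostly higher. Of the chaperones and disulfide bond enzymes that fold proteins in the ER, 20 of 23 tested genes were higher and 1 was lower. Their median log2 difference was 3.09, 2.63, 3.18 and 3.22 in samples 1 to 4. With CPM over all UMIs 16 were higher and 1 was lower. Hsp90b1, the ER form of HSP90, stood at 5901, 4458, 6803 and 6569 CPM against 258, 236, 188 and 209 in B cells. Creld2, a folding factor of the ER, stood at 897, 538, 822 and 739 CPM against 11.98, 9.94, 14.3 and 8.39. Both classes of cells were far apart in every sample for these genes. The exception was Ero1lb, an oxidase that recharges disulfide isomerases, which was lower in plasma cells by 1.09 to 1.73 on the log2 scale. Its paralogue Ero1l was higher by 1.25 to 2.58, a call lost with CPM over all UMIs. Canx, a chaperone of glycoproteins, was not called, with differences of 0.79, 0.76, 1.19 and 1.27.

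Genes for entry into the ER, glycosylation and quality control were mostly higher as well. In ER translocation and signal peptide cleavage 17 of 23 genes were higher and 0 lower, or 13 and 0 with CPM over all UMIs. Higher genes included Ssr4, a subunit of the translocon-associated complex (differences of 4.88, 4.33, 4.48 and 4.36), and Tram2 (4.76, 4.74, 5.89 and 5.13). Sec11c, a catalytic subunit of the signal peptidase, was at 2148, 2195, 1909 and 2067 CPM against 91.5, 99.2, 88.3 and 69.3, whereas its paralogue Sec11a was not called, with differences from -0.48 to -0.09. In N-glycosylation 13 of 17 were higher and 0 lower, or 9 and 3 with CPM over all UMIs, where 3.68% of all tested genes were higher and 24.9% lower. Stt3a, the catalytic subunit that glycosylates chains as they enter the ER, was called with differences of 1.20 to 1.46. With CPM over all UMIs this call was lost. Stt3b, which acts on sites skipped by Stt3a, had differences of -0.82, -1.43, -1.60 and -1.22. In ER-associated degradation, which returns misfolded chains to the proteasome, 14 of 15 were higher and 0 lower. With CPM over all UMIs these counts were 10 and 0. Derl3 stood at 472, 319, 509 and 545 CPM against 1.35, 2.06, 0 and 3.15, and Edem1, a lectin that marks misfolded glycoproteins, at 1364, 1492, 1729 and 2118 CPM against 96.2, 103, 121 and 106. In transport from ER to Golgi 12 of 25 genes were higher and 0 lower, or 6 and 1 with CPM over all UMIs. Lman1, a cargo receptor, and Sec24d, a coat subunit, differed by 4.44 to 4.88 and 3.67 to 4.71.

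**Figure D4:**
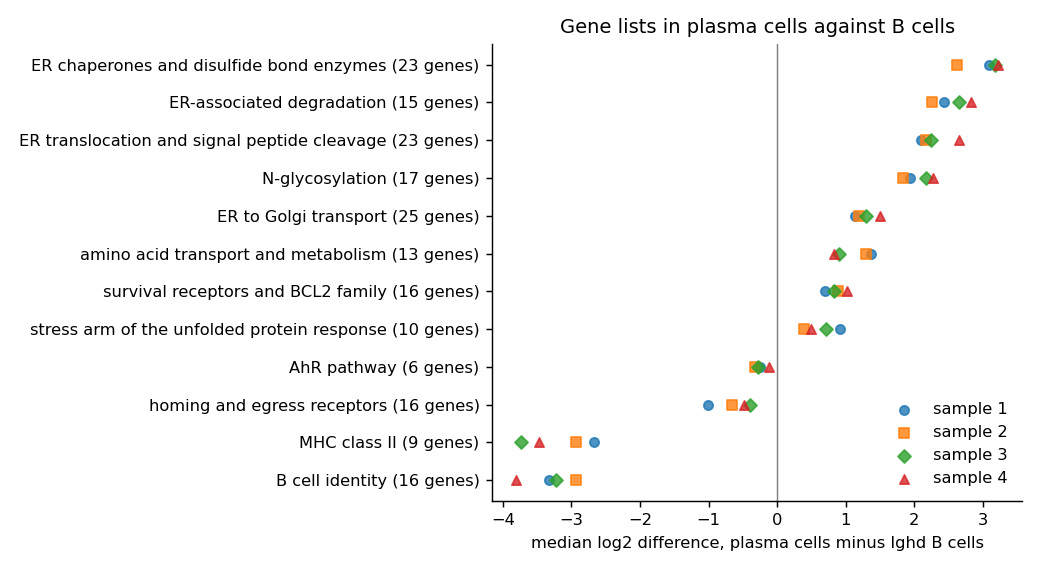
Median log2 difference between plasma cells and Ighd B cells for 12 gene lists, with a symbol for each sample and the number of tested genes in brackets. In all samples the 5 secretory lists lie at 1.14 or above, the stress and survival lists between 0.39 and 1.02, and the MHC class II and B cell lists at -2.67 or below. With CPM over all UMIs the ER to Golgi list lies at 0.35 to 0.86 and the stress list at -0.15 to -0.06. The survival list then lies at -0.10 to 0.40.

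In the stress arm of the unfolded protein response 2 of 10 tested genes were called, Chac1 and Asns, both higher. The median of the list was 0.91, 0.39, 0.71 and 0.49, and it changed sign with CPM over all UMIs (-0.12, -0.15, -0.07 and -0.06). Chac1, which degrades glutathione, stood at 210, 87.5, 87.6 and 63.4 CPM against at most 0.343 in B cells, and Asns, asparagine synthetase, at 120, 63.6, 82.2 and 95.1. Ddit3, the pro-apoptotic factor CHOP, had differences of -0.09, -0.18, -0.03 and -0.54, and Atf4 of 0.32, 0.18, 0.42 and 0.24. Ern1, which encodes IRE1, was past 2-fold in samples 1, 2 and 4 but not in sample 3 (0.88), where B cells also held more of it.

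Of 9 transcription factors of the plasma cell stage, 7 were higher and 1 lower, where the 7 include Xbp1, which the selection fixed. With CPM over all UMIs 6 were higher and 1 lower, and Ell2 was no longer called. Prdm1, which encodes BLIMP-1, the repressor of the B cell programme, stood at 261, 289, 411 and 323 CPM against 8.41, 12.2, 11.7 and 20.99 in B cells. Creb3l2 (differences of 4.32 to 5.39), Bhlha15, known as MIST1 (2.43 to 3.59), Zbtb38, Ell2, which favours secretory over membrane immunoglobulin, and Atf6 were also higher. Irf4 was not called (0.85, 0.20, 0.51 and 0.74), and Zbtb20 was lower by 1.07 to 1.85.

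Of 16 tested B cell identity genes 13 were lower and 0 higher. Ms4a1, which encodes CD20 and was used to choose the B cells, stood at 23.1, 27.2, 3.58 and 12.7 CPM against 367, 413, 347 and 367. Pax5, the factor that maintains B cell fate, was at 43.6, 45.1, 1.79 and 0 CPM against 509, 562, 440 and 550. The 3 genes that were not called belong to the antigen receptor complex and its adaptor. Cd79a stood at 733, 653, 484 and 298 CPM, Cd79b had differences of -0.35, 0.11, -0.39 and 1.92, and Blnk of -0.25, 0.20, 0.49 and 0.75. All 9 genes of the MHC class II list were lower, from Ciita, their master regulator (0 to 5.13 CPM against 37.7 to 76.9), to Cd74, the invariant chain (lower by 1.16 to 1.45). Residual levels of some genes that were far higher in B cells differed between samples. Cd86 was at 94.9, 101, 3.58 and 6.34 CPM, and Bank1 at 105, 194, 16.1 and 22.2 CPM. B cells themselves made up 11.7%, 6.59%, 1.05% and 1.75% of kept cells in the same order, and the part of B cell RNA in these values was not tested.

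The 10 genes furthest above B cells, ranked by their smallest difference over the 4 samples, included Jchain, Xbp1, Derl3 and Creld2. Ly6c2, a surface antigen best known on monocytes, stood at 4114, 2568, 2440 and 2222 CPM against 12.9, 11.99, 27.3 and 5.25 in B cells, and neutrophil-marked cells held 237, 95.6, 156 and 206. The plasma cell sums were raised by a minority of cells. Among IgA cells the median cell held 1005, 815, 1482 and 808 CPM of Ly6c2, with 1 cell of sample 1 at 29420. Pls1, an actin bundler, Dnm3, a dynamin, Cpeb3, an RNA-binding regulator of translation, Mt2, a metallothionein, and Rhobtb1 differed by 5.09 to 5.89. At the other end stood Bank1, Ms4a1, Gm16341, Cnr2, Fcmr, Ebf1, Aff3, Cd86 and H2-DMb2, each lower by at least 3.42 in every sample. Fcmr encodes the receptor for IgM and Cnr2 the cannabinoid receptor of B cells.

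Epcam, best known as an adhesion molecule of epithelium, was the 1 gene called among 6 tested epithelial markers. It stood at 187, 123, 113 and 149 CPM and had a UMI in 86.2%, 63.6%, 58.3% and 70.8% of plasma cells, against 4.38%, 6.08%, 6.84% and 7.80% of B cells and 5.64%, 14.5%, 3.16% and 7.56% of neutrophil-marked cells. Krt8 stood at 2.56, 29.2, 1.79 and 15.9 CPM in plasma cells against 3.96, 14.7, 5.19 and 22.0 in B cells, and Pigr and Muc2 at 8.61 CPM or less. Neutrophil-marked cells held 48.1, 92.4, 26.8 and 93.0 CPM of Epcam. The epithelial list summed to 218, 215, 122 and 206 CPM in plasma cells, most of it Epcam.

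Of the survival genes, 6 of 16 were higher and 1 lower, or 3 and 1 with CPM over all UMIs, where Slamf7, Cd44 and Cd93 were no longer called. Tnfrsf17 (GRCm38, chr16:11313812-11320074) was at 213 (95% interval 169 to 264), 225 (202 to 251), 41.1 (26.1 to 61.7) and 91.9 (61.6 to 132) CPM in samples 1 to 4, and at 1.03 CPM or less in B cells. The order was sample 2, sample 1, sample 4 and sample 3. The intervals of samples 1 and 2 overlapped, those of samples 3 and 4 barely did, and every other pair was apart. With each cell thinned to 5000 UMIs outside immunoglobulin, 71.4%, 60.9%, 15.9% and 29.2% of cells had a UMI (86.2%, 81.1%, 31.2% and 41.7% unthinned), against 0.167%, 2.25%, 0.107% and 0.177% of neutrophil-marked cells. Thinning left out 1, 5, 4 and 0 cells. Tnfrsf13b did not show this spread, at 295, 298, 329 and 333 CPM with intervals that all overlapped. Cd28, which prolongs plasma cell life, was higher than in B cells by 2.09 to 4.41, Slamf7 by 1.48 to 1.97, Cd44 by 1.23 to 2.06 and Cd93 by 1.54 to 2.71, while Cd38 was lower by 2.17 to 3.48. Mcl1, the BCL2 family member on which plasma cells depend, was past 2-fold in samples 1 and 2 only (1.13, 1.03, 0.10 and 0.54).

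Homing genes were split, with 2 of 16 higher and 6 lower. Receptors that place B cells in lymphoid tissue were among the lower ones, including Ccr7 (lower by 2.90 to 5.69), Cxcr5 (3.38 to 5.35), Ccr6 and Gpr183. The egress receptor S1pr1 was lower as well. Ccr10 and Ccr9 were higher.

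Ccr10 (GRCm38, chr11:101172997-101175443), the receptor for the mucosal chemokine CCL28, was at 344 (95% interval 288 to 407), 311 (284 to 341), 57.2 (39.1 to 80.8) and 105 (72.0 to 147) CPM in samples 1 to 4, and at 0.514 CPM or less in B cells. The intervals of samples 1 and 2 overlapped, as did those of samples 3 and 4, and the 2 pairs were apart. After thinning, 78.6%, 58.7%, 27.3% and 37.5% of cells had a UMI (86.2%, 77.6%, 39.6% and 50% unthinned), against 0.167%, 2.11%, 0.0803% and 0.177% of neutrophil-marked cells. Among IgA cells alone the levels were 344, 320, 59.8 and 131 CPM, so the difference between samples was also present within that class. Tnfrsf17 in IgA cells alone was at 213, 229, 52.6 and 115 CPM. Ccr9, the receptor for CCL25, was at 33.3, 52.3, 69.7 and 72.9 CPM, and the intervals of samples 1 (17.7 to 57.0) and 4 (46.2 to 109) overlapped. Itgb7 was past 2-fold above B cells in samples 1 to 3 but not in sample 4 (0.92). Itga4 had differences of 0.29, 0.79, 1.01 and 1.01. Cxcr4 was at 51.3, 53.0, 120 and 101 CPM, below B cells by 1.64, 1.87, 0.86 and 1.20 on the log2 scale.

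**Figure D5:**
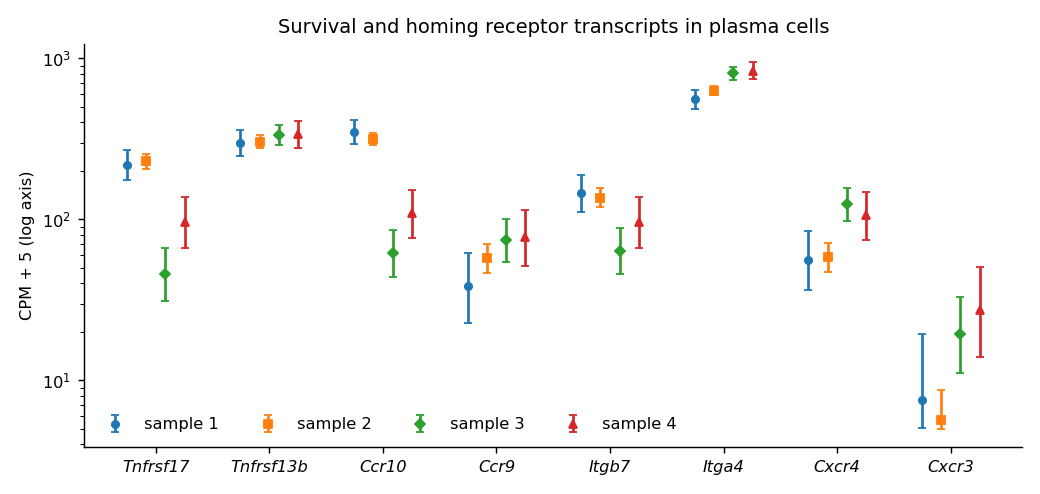
CPM + 5 over UMIs outside immunoglobulin, on a log axis, of 8 receptors in the summed plasma cells of each sample, with 95% exact Poisson intervals. Before the 5 is added, Tnfrsf17 (41.1 to 225 CPM) and Ccr10 (57.2 to 344 CPM) are spread over the samples, while Tnfrsf13b lies between 295 and 333 CPM in all.

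In amino acid transport and metabolism 6 of 13 genes were higher and 1 lower, or 4 and 4 with CPM over all UMIs, where 24.9% of all tested genes were lower. Slc3a2 and Slc7a5, the subunits of the large neutral amino acid transporter LAT1, were both called, with differences of 1.66 to 2.39 and 1.30 to 2.49. Odc1 (GRCm38, chr12:17544794-17551505), the first enzyme of polyamine synthesis, was not called. It was at 761 (677 to 853), 632 (592 to 673), 318 (273 to 369) and 393 (327 to 469) CPM, against 187, 196, 227 and 220 in B cells. Samples 1 and 2 lay above samples 3 and 4 with no overlap of intervals between the pairs, whereas the levels in B cells lay close together. These sums were raised by some cells of high level. Among IgA cells the median cell held 351, 439, 215 and 262 CPM of Odc1.

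Of 6 tested genes of the AhR pathway 1 was higher and 1 lower, or 0 and 1 with CPM over all UMIs. Ahr itself was at 43.6 (25.4 to 69.8), 37.1 (28 to 48.2), 42.9 (27.5 to 63.8) and 63.4 (38.7 to 97.9) CPM, with intervals that all overlapped, and at 62.1, 82.4, 85.7 and 64.0 in B cells. Transcripts of a disrupted gene can still be counted, so these levels do not report the protein. The AhR targets Cyp1a1, Cyp1a2 and Cyp1b1 had 0 UMIs in the plasma cells of every sample, which for Cyp1a1 allows up to 9.46, 2.44, 6.59 and 11.7 CPM. Tiparp, another AhR target, was the gene called higher, a call lost with CPM over all UMIs, at 369, 449, 518 and 536 CPM against 124, 116, 127 and 113, and Nfe2l2, the antioxidant factor NRF2, was lower by 1.31 to 2.23.

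Among secreted mediators and regulatory surface proteins, 2 of 10 tested genes were higher and 1 lower. With CPM over all UMIs 0 were higher and 1 lower, so the calls of Cd274 and Il10 were lost. Cd274, which encodes PD-L1, was at 997, 756, 1275 and 976 CPM against 373, 223, 347 and 250 in B cells. Neutrophil-marked cells held 829, 339, 443 and 365 CPM of Cd274. Il10 was called, at 12.8, 19.9, 34.0 and 38.0 CPM against 2.32, 3.43, 1.30 and 6.30, but neutrophil-marked cells held more of it (25.2, 37.2, 78.2 and 113 CPM). Tgfb1 was lower by 1.88 to 3.02. Of 8 interferon-stimulated genes Bst2 and Zbp1 were higher and 0 were lower, or 1 and 0 with CPM over all UMIs, with Bst2 at 802, 500, 320 and 314 CPM. Of 15 genes of dissociation and heat shock, which report handling of the tissue, Jun was higher (1.33 to 1.78), a call lost with CPM over all UMIs, and Nr4a1 lower (by 2.13 to 2.49).

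Few markers of other cell types were higher in plasma cells than in B cells, and the selection itself held 6 of them at 0. T cell markers summed to 59.0, 115, 53.6 and 79.3 CPM, with 0 of 5 tested genes higher. Macrophage and monocyte markers summed to 192, 278, 125 and 127 CPM (0 of 6 higher), led by Apoe, and neutrophil markers to 956, 523, 706 and 371 CPM (0 of 6 higher), led by S100a9. Haemoglobin genes and Alas2 were at 0. Fibroblast markers gave 3, 1260, 150 and 4 UMIs, but 1225 of those in sample 2 came from 2 cells and 142 of those in sample 3 from 1 cell. Mast cell markers reached 211 CPM in sample 2 against 12.8, 3.58 and 6.34 elsewhere, where 216 of 318 UMIs were Mcpt1, and B cells of that sample held 257 CPM. Of the plasmacytoid dendritic cell list, Ccr9 was the gene called higher, and Siglech, Klk1 and Cox6a2 were at 0. Pecam1 was lower among 2 tested endothelial genes, and of 3 tested germinal centre genes Fas was higher, a call lost with CPM over all UMIs, and Bcl6 lower.

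Dividing cells were few. Of 25 tested cell cycle genes 3 were higher than in B cells (Mki67, Rrm2 and Kif11) and 0 lower. With each cell thinned to 2000 UMIs outside immunoglobulin, at least 2 UMIs of 6 cycling genes were present in 1 of 29, 5 of 142, 2 of 48 and 3 of 24 plasma cells. The shares were 3.45% (0.0873% to 17.8%), 3.52% (1.15% to 8.03%), 4.17% (0.509% to 14.3%) and 12.5% (2.66% to 32.4%), with overlapping intervals, against 0.865%, 0.704%, 0.870% and 0.725% of B cells. Without thinning they were 17.2%, 13.3%, 10.4% and 29.2%. The signal lay in a handful of cells. In samples 1 to 4, 1, 4, 2 and 2 cells held 20 or more UMIs of these genes, and together they carried 44 of 62, 139 of 230, 194 of 207 and 165 of 194 UMIs. Both heavy chain classes were among them, with 6 of 227 IgA cells and 3 of 17 IgG cells. The 2 such cells of sample 3 were IgG cells.

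Variable (V) genes, which encode the antigen-binding part of the antibody, were read where depth allowed. A leading heavy chain V gene, with at least 5 UMIs, was found in 21, 84, 33 and 18 cells, and these used 12, 37, 22 and 12 different genes. With 18 cells drawn from each sample, the effective number of genes (the count of equally used genes that gives the same evenness) was 9, 10.8, 12.5 and 7.71. Leaving out the plasma cells of highest doublet score, 4 in sample 2 and 1 in sample 3, gave 13.5 and 16.2 there. A single draw of 18 cells is thus uncertain. An unbiased estimate over all cells with a leading gene, chosen after seeing the data, gave 15, 22.9, 33 and 12.75, so the number depends on the estimate. The most used heavy chain genes were Ighv11-2 in sample 1 (4 cells), Ighv1-64 (11) and Ighv1-39 (10) in sample 2, Ighv1-26, Ighv1-47 and Ighv1-53 in sample 3 (3 each) and Ighv1-81 and Ighv2-3 in sample 4 (4 each). Ighv11-2 is best known from B-1 cells, which live in body cavities. Of 53 leading heavy chain V genes, 0 led in all 4 samples and 28 led in 1 sample only. Both chains were read in 16, 64, 25 and 14 cells, which held 13, 57, 24 and 12 different pairs. In sample 4, 3 cells shared the pair Ighv1-81 and Igkv1-110, and both IgA and IgG occurred among them. Over all samples, 5 pairs occurred in more than 1 sample, and so in different mice. The light chain genes leading most cells were Igkv10-96 in samples 1 and 2 (5 and 9 cells), Igkv19-93, Igkv3-4 and Igkv8-27 in sample 3 (4 each) and Igkv1-110 in sample 4 (5). V genes of a family share much of their sequence, so the assignment to a single gene is uncertain, and no junction was read, so a shared pair does not establish a shared clone.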

How the data were processed

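Colonic lamina propria CD45+ cells of 4 samples were profiled on the 10x platform. Unnormalized UMI counts, one matrix for each sample, were deposited. The submitters' notes name Cell Ranger 5.0.0, STAR, Seurat and mm10, whereas the matrix headers name Cell Ranger 7.0.1. The chemistry, the annotation release and the counting of introns are not given in the sources used here. Gene positions came from GENCODE M21 and promoters from RefSeq GRCm38.p6.

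Cells were filtered and selected as described, and 43432 of 45229 deposited cells were kept. The members and gene lists were chosen with earlier results of these data known. The labels give no genotype, so samples were not grouped or tested. Shares carry Clopper-Pearson intervals and summed counts exact Poisson intervals at 95%, covering counting error only. Plasma cells were summed per sample and set against B cells (at least 1 Ms4a1 and 2 Ighd UMIs, fewer than 5 Jchain UMIs, and none of the 6 lineage genes) as log2(CPM + 5) over UMIs outside 392 immunoglobulin genes. Genes under 10 CPM in both classes were left out. Named genes were those of the selection and lists, the 10 with the largest smallest difference in each direction, the 5 with the largest range between samples, and leading V genes. Some genes that met this rule are not reported here. With a single summed library per class and sample, a call is a fold past 2 in 4 of 4 samples, not a test. Doublets were kept. The highest Scrublet scores (0.8% per 1000 cells) marked 966, 1399, 997 and 520 kept cells in samples 1 to 4. Of the plasma cells, 0, 4, 1 and 0 were among them, 5 in all. The selection had already removed cells with lineage UMIs, so this count does not show that doublets were few. Removal of the marked cells was an alternative. Of the plasma cell barcodes, 2 also occurred among the deposited cells of another sample, and none was a plasma cell in both. Of the steps, only the 2-fold comparison was tested on simulated counts, which had no spread between cells or samples beyond counting error. Python 3.11.15, numpy 2.4.6, scipy 1.17.1, pandas 2.3.3, scanpy 1.11.5 and matplotlib 3.10.9 were used.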

Additional observations from a re-analysis of the deposited data

How the results depend on the processing

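Values here are medians over the 4 samples unless they count genes. The plasma cell share of 0.364% became 0.686% without the exclusion of lineage genes and 0.118% when cells with a UMI of Epcam, Col3a1, Cdh5 or Ms4a1 were also left out, a step that removes most plasma cells because they hold Epcam. The immunoglobulin share of 43.8% became 41.2% of summed UMIs. The IgA share of 91.3% became 87.4% without the exclusion of lineage genes, an alternative chosen after seeing the data. The cycling share of 3.84% became 15.3% without thinning and 10.8% at a minimum of 1 UMI. The effective number of V genes of 9.90 became 18.97 with an unbiased estimate over all cells, also chosen after seeing the data. The 761 higher and 850 lower genes became 339 and 2293 with CPM over all UMIs, 447 and 515 with a pseudocount of 20, and 230 and 155 at 4-fold, so the share of higher calls was 47.2% or, over all UMIs, 12.9%. Leaving out 1 sample gave 844 to 861 higher and 971 to 1048 lower genes, since fewer samples had to pass. Of 60 alternatives run for these summary values, 47 stayed within the limits set for a change. Without cells with 10 or more fibroblast UMIs there were 762 higher and 855 lower genes, and with IgA cells alone 717 and 837, both chosen after seeing the data.

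Alternatives were run gene by gene for 54 named genes. They were the plasma cell markers, the tested genes of the survival and homing lists, and the 10 genes furthest from B cells in each direction. Of these 54, 37 were called, and 0 of the 37 changed direction. For many of the called genes this outcome was fixed in advance. Jchain, Mzb1, Xbp1 and Ms4a1 were used to cut the classes, and the 10 in each direction were picked for large differences in these data. Among the genes of the 54 that were not called, 4 had a median that changed sign under an alternative. It was near 0 for Il6st, Bcl2 and Bcl2l1, and for Bcl2l11 it went from 0.55 to -0.24 with CPM over all UMIs. Among the 54, with CPM over all UMIs, Slamf7, Cd44 and Cd93 were no longer called. Their median log2 differences were 0.88, 0.96 and 1.68, and Cxcr4 became lower (-2.09). Calls of genes outside the 54, among them Tiparp, Cd274, Il10, Jun and Fas, were also lost. With IgA cells alone, Cxcr4 (-1.43) and Itgb7 (1.33) were called. Cxcr4 was also called without sample 3 (-1.64) and Itgb7 without sample 4 (1.33). The comparison of IgG or IgM with IgA cells across genes, with its alternatives, was not run, since 0 samples held 50 cells of both classes, and a minimum of 20 V gene UMIs left too few cells. No paired comparison between groups of samples was possible because the labels put the samples in no groups that could be paired. Plasma cells and B cells were compared within each sample, and an exact two-sided sign-flip test over 4 samples cannot go below 0.125. The 24 to 143 plasma cells per sample limit every share and level.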

Other observations

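The levels of several transcripts in plasma cells split the samples into 1 and 2 on one side and 3 and 4 on the other. Tnfrsf17 (213, 225, 41.1 and 91.9 CPM), Ccr10 (344, 311, 57.2 and 105), Odc1 (761, 632, 318 and 393), Tmem176a (1195, 1208, 711 and 396), Cd86 (94.9, 101, 3.58 and 6.34) and Bank1 (105, 194, 16.1 and 22.2) were higher in samples 1 and 2. Cd86 and Bank1 were among the genes furthest below B cells. Ighd B cells were 11.7%, 6.59%, 1.05% and 1.75% of kept cells, and the part of RNA from B cells or other cells in these values was not tested. Hspa5 (2189, 1405, 4739 and 3218 CPM), Slc7a5 (182, 194, 336 and 327) and Cxcr4 (51.3, 53.0, 120 and 101) were higher in samples 3 and 4. IgG cells were 0%, 2.80%, 14.6% and 25% of plasma cells in the same samples. In IgA cells alone Tmem176a was at 1195, 1231, 908 and 455 CPM, and the Cxcr4 intervals of samples 1 (31.3 to 79.2) and 3 (68.3 to 130) overlapped. Over all plasma cells, the 95% intervals of Tnfrsf17, Ccr10, Odc1, Hspa5 and Slc7a5 did not overlap between the 2 pairs. These intervals cover counting error and not the spread between cells, where Odc1 ranged from 0 to 3557 CPM over the IgA cells of sample 1. The labels give no group to these samples, the genes were chosen after their values were seen, and the split was not tested. The share of all genes that split the samples in this or another way is not given.

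The 5 genes with the widest range between samples were Il1rapl2, Col3a1, Hspb1, Mcpt1 and Sparc, and each rested on few cells in at least 1 sample. Il1rapl2 had 124, 166, 44 and 0 UMIs, in 3, 5, 2 and 0 cells. In sample 1, 67 of 68 Hspb1 UMIs lay in 1 cell. In sample 2, 340 of 449 Col3a1 UMIs, 146 of 199 Sparc UMIs and 136 of 216 Mcpt1 UMIs lay in 1 cell each.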
